A study of Caenorhabditis elegans with 2 samples.

Results

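The genes described here are nipi-3, the C/EBP genes cebp-1 and cebp-2, and 4 genes of the p38 immune cascade, tir-1, nsy-1, sek-1 and pmk-1. These 7 genes, out of 19973 protein-coding genes of Caenorhabditis elegans, were selected on a measured value: nipi-3 held the peak with rank 15 by signal among all MDL-1 peaks, and the other 6 are the C/EBP and p38 cascade genes grouped with it. The values of nipi-3 are therefore given as a description, and no test was made over the 7 genes. The next stronger peak in the list had a signal of 408, the nipi-3 peak 407 and the next weaker one 399.

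The data were ChIP-seq peak lists for MDL-1, a Mad-type bHLH-Zip factor, from whole L2 larvae of mixed sex. Both samples were biological replicates of strain OP355, which carries unc-119(tm4063) and the integrated transgene wgIs355, an insertion targeting mdl-1. A further label on both samples names KLU-1, not MDL-1, as the protein joined to a GFP-FLAG tag. There was no second condition, and the study's control reads were not analysed here. Signal from whole animals is a sum over all tissues, so a strong peak in few cells and a weak one in many cannot be told apart.

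In C. elegans the TIR-domain adaptor TIR-1 activates a kinase cascade in which NSY-1, a MAP kinase kinase kinase, acts on SEK-1, a MAP kinase kinase, and SEK-1 on the p38 kinase PMK-1. This cascade is a main pathway of defence against bacteria in the intestine and against fungi and wounds in the epidermis. NIPI-3 is a Tribbles-type pseudokinase that is needed to induce an antimicrobial peptide gene in the infected epidermis, and it is also known to restrain CEBP-1, a bZIP factor of the C/EBP family, during larval development. CEBP-2 is a second C/EBP-type factor.

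A peak below means a region of the authors' optimal list, which holds the 1076 regions kept by a threshold on the irreproducible discovery rate (IDR), a measure of how consistently regions rank between replicates. Signal is the value that the authors' caller gave each region, on a scale that is not stated. In the optimal list it ran from 48.3 to 1134 with a median of 72.5. Positions are ce11 positions counted from 1, and a peak belongs to a gene's window when its summit, the marked highest point, lies inside the gene or within 5 kb of either end.

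The stronger nipi-3 and cebp-1 peaks are the ones upstream of a member with that member's start as the nearest. Neither holds CACGTG, the canonical E-box word recognised by factors of MDL-1's family. Their sequence is shown for that reason. Apart from CACATG, other forms of the E-box were not sought, so their absence from these peaks is not shown. Both are given in lower case on the forward strand of the ce11 reference. Capitals mark GAGAGA or its complement in the nipi-3 peak, shown whole from chrX:15607546-15607804, and AGACGCAG or its complement in the 101 bases around the summit of the stronger cebp-1 peak, chrX:1454512-1454612.
nipi-3 peak: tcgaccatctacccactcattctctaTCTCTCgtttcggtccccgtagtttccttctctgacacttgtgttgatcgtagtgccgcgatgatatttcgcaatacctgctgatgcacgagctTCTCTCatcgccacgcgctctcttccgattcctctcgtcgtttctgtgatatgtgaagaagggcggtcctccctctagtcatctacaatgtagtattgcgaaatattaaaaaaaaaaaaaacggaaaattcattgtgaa
cebp-1 peak: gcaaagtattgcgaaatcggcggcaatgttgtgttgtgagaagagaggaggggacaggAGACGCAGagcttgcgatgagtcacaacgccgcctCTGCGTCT

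These peaks shared a longer word. Across all 21 pairs of the 7 peaks in the set, the longest identical stretch on either strand had a median length of 8 bases and ranged from 7 to 13. The peaks were from 132 to 340 bp wide, and these lengths were not adjusted for width. The longest, 13 bases, joined the nipi-3 and the stronger cebp-1 peak. A 12-base part of it was present in the nipi-3 peak in 2 copies on opposite strands, with centres 121 bp apart and 327 and 206 bp upstream of the gene's start. In the cebp-1 peak it was present in 1 copy, 654 bp upstream of that gene's start. The 3 copies are shown with 10 bases to each side and the 12-base word in capitals.
nipi-3 copy 1, chrX:15607627-15607658: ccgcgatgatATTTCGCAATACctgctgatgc
nipi-3 copy 2, chrX:15607748-15607779: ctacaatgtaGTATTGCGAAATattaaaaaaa
cebp-1 copy, chrX:1454507-1454538: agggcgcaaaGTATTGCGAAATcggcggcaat

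The word holds ATTGC, the half-site from which binding sites of C/EBP-type proteins are known to be built, followed by GAAAT. It was picked after the sequences were seen, in these 2 peaks, as the longest part of the 13 bases with the most copies in the nipi-3 peak. Their carrying it, and its 2 copies in the nipi-3 peak, are therefore no finding. Searched on both strands, the word was present in 2 of all 1076 optimal peaks, which are these. It was also present in 16 of 30000 regions of the pooled list, 0.0533%. Promoter windows from 1000 bp upstream to 200 bp downstream of the most upstream start held it in 24 of 19973 protein-coding genes, 0.12%, and the 6 nuclear chromosomes held 73 sites. Whether a protein is bound at the word was not tested.

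Of the 7 genes, 5 had at least 1 optimal summit in their window, where 10.6% of all protein-coding genes had one. The 5 genes were nipi-3 and cebp-1 with 2 summits each and tir-1, sek-1 and pmk-1 with 1 each, while cebp-2 and nsy-1 had none. Having 2 or more optimal summits was found for 1.94% of all protein-coding genes. The 3 members on chromosome X, nipi-3, cebp-1 and sek-1, all had a summit, against 16.9% of the genes on that chromosome. The windows of the 7 genes spanned 120.4 kb and held 7 summits, 5.81 per 100 kb, against 0.993 per 100 kb in the windows of all protein-coding genes. Because tir-1 is long its window was 42.1 kb, while those of the other 6 ran from 10.5 to 17.2 kb and the median over all genes was 12 kb. The count includes nipi-3, whose peak chose the set, and was therefore not tested.

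The summits differed in how close they lay to the member's own start. A summit in the member's own promoter window, reaching 1000 bp before and 200 bp past each annotated start, was found for nipi-3 and cebp-1, against 3.07% of all genes. When each summit was given only to the protein-coding gene with the nearest annotated start, the same 2 genes kept 1 summit each, against 4.19% of all genes. For tir-1, sek-1 and pmk-1 the nearest start was that of rpl-3, eef-1A.2 and pmk-2. All 7 summits lay outside the body of the member gene.

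**Figure D1:**
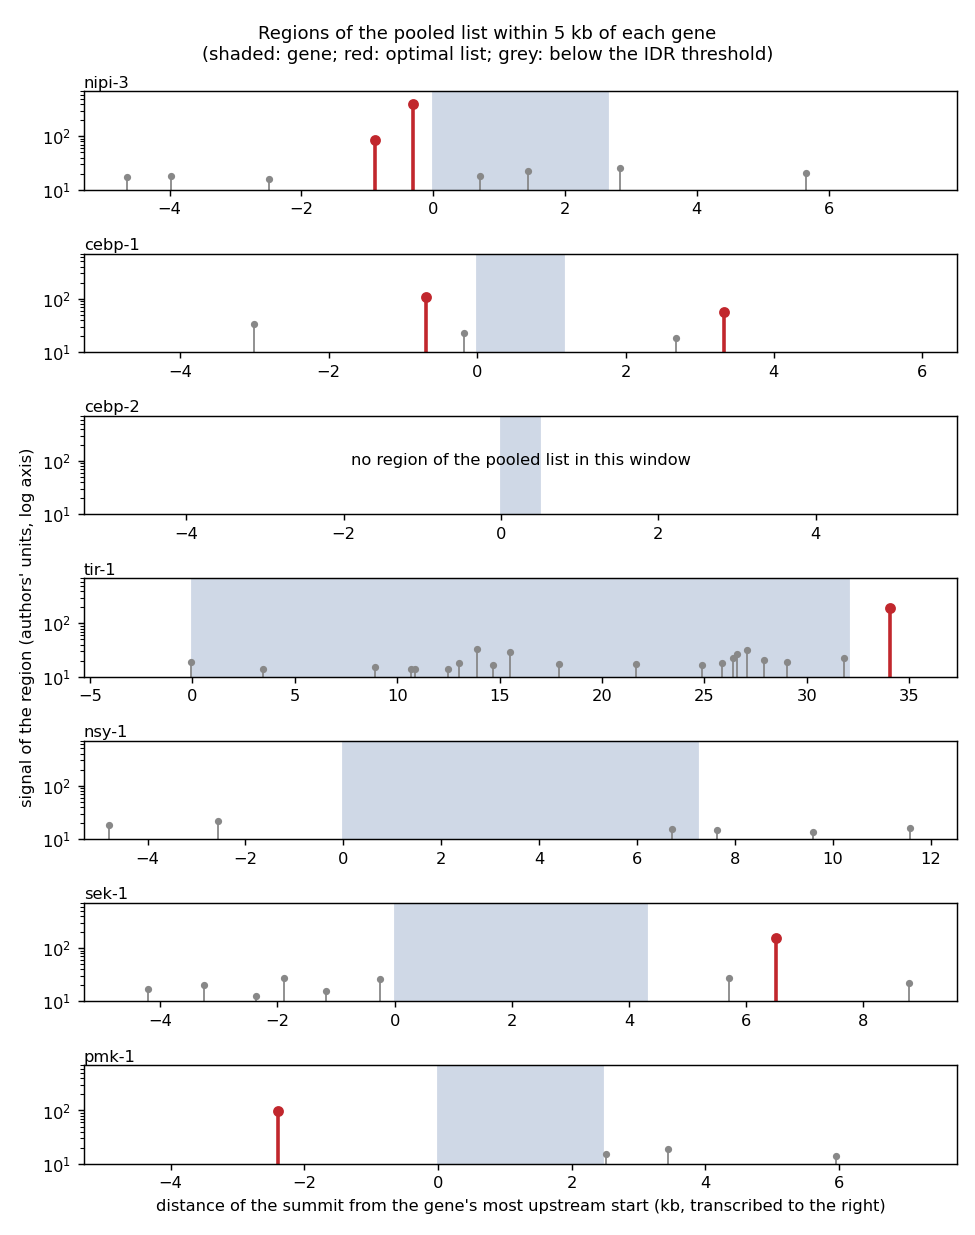
Regions of the pooled list in the window of each gene. The horizontal axis is the distance of the summit from the gene's most upstream annotated start in kb, with transcription to the right, and the vertical log axis is the authors' signal; shading marks the gene, red the optimal list and grey regions below the IDR threshold. Both nipi-3 summits and the stronger cebp-1 summit lie upstream of the gene, those of tir-1 and sek-1 and the weaker cebp-1 summit beyond its far end, and that of pmk-1 2398 bp upstream.

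nipi-3 (WBGene00010700) lies on the forward strand of chromosome X from 15607969 to 15610623. Its stronger peak had a signal of 264 in replicate 1 and 149 in replicate 2, and 407 in the pooled data. It ranked 11 in replicate 1's list, 21 in replicate 2's and 15 in the pooled and optimal lists, so it was among the strongest regions of both libraries. The summit was intergenic, 305 bp upstream of the nipi-3 start, with no other protein-coding start nearer. Replicate 1 placed the summit at the same base and replicate 2 placed it 13 bp away.

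The weaker nipi-3 peak spanned positions 15606920 to 15607259. Its signal was 47.7 in replicate 1, 40.5 in replicate 2 and 83.5 in the pooled data. It ranked 448 in the optimal list, 419 in replicate 1 and 464 in replicate 2, near the middle of the optimal list. Its summit was 879 bp upstream of nipi-3 but 455 bp from the start of rab-14, the gene of a Rab-type GTPase on the opposite strand. It lay in the promoter windows of both genes, which share this intergenic stretch, and does not single out either.

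cebp-1 (WBGene00016997), on the reverse strand of X from 1452695 to 1453868, had its stronger peak at X from 1454392 to 1454731. Signals were 53.7 in replicate 1, 52.3 in replicate 2 and 109 in the pooled data, with ranks of 335, 281 and 270. The replicates were close in signal, and the summit lay 694 bp upstream of the cebp-1 start in intergenic sequence, with cebp-1 the nearest gene. The weaker cebp-1 peak, at X from 1450371 to 1450710, had signals of 28.2 and 27.8 in the replicates and 55.5 pooled, and ranked 855. Its summit was 2154 bp beyond the far end of cebp-1 and 227 bp upstream of W05H7.1, in whose promoter window it lay.

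cebp-2 (WBGene00016754), on chromosome I from 6253082 to 6253584, had no optimal summit and no region of any rank in the pooled list within 5 kb. At least 1 pooled region within 5 kb was found for 87.4% of all protein-coding genes. Replicate 1's list of 30000 regions also had none there, while replicate 2's had 4, the strongest at rank 6138 with a signal of 15.3, inside a coding exon of the neighbouring gene lpd-2. The closest optimal summit was 6792 bp beyond the gene, with a signal of 101, and lay 127 bp from the start of C48E7.1. Among the members, then, the C/EBP genes differed: cebp-1 had a peak upstream of its own start in both replicates and cebp-2 had none.

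tir-1 (WBGene00006575), on the reverse strand of chromosome III from 3869590 to 3901642, had 1 optimal summit, and it lay 2010 bp beyond the 3′ end of the gene. That peak, at III from 3867498 to 3867646, had signals of 98.3 and 93.6 in replicates 1 and 2 and 194 pooled, at rank 73. The nearest start, 274 bp away, was that of rpl-3, a ribosomal protein gene, and the summit lay in the promoter window of rpl-3 alone. None of the 11 annotated tir-1 starts had an optimal summit in its promoter window.

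nsy-1 (WBGene00003822), on chromosome II from 5022757 to 5029999, had no optimal summit. Its best pooled region ranked 7774, with a signal of 21.5, 2559 bp upstream of the start. Replicate 2 ranked that region 1091, with a signal of 26.1, and replicate 1 listed no region overlapping it. The closest optimal summit was 5341 bp outside the gene and had a signal of 57.4.

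sek-1 (WBGene00004758), on X from 7816734 to 7821036, had 1 optimal summit 2199 bp beyond its 3′ end. The peak, at X from 7823197 to 7823328, had signals of 79.8 and 78.2 in replicates 1 and 2 and 154 pooled, at rank 139. Its summit was 419 bp upstream of eef-1A.2, which encodes a translation elongation factor, and 150 bp from the non-coding RNA gene R03G5.8. At the start of sek-1 itself the pooled list held a region at rank 4071, with a signal of 26.4 and a summit 245 bp upstream, below the IDR threshold. Both downstream peaks of the cascade genes, at tir-1 and sek-1, thus lay upstream of a gene of protein synthesis that starts past the member's end.

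pmk-1 (WBGene00004055), on chromosome IV from 8148794 to 8151266, is known to be transcribed in an operon with pmk-3 and pmk-2, which also encode p38-type kinases. The operon makes the distance to the annotated pmk-1 start a poor guide to its promoter. The single optimal summit of its window lay 2398 bp upstream of that start, in an intron of pmk-2 and 825 bp upstream of an annotated pmk-2 start. The peak, at IV from 8146226 to 8146565, had signals of 39.1 in replicate 1, 55.1 in replicate 2 and 97.8 pooled, with ranks of 570, 250 and 338. It was the only peak of the set with a higher signal in replicate 2. No other pooled summit lay between this one and the end of pmk-1.

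The pmk-1 window's peak was also the only one of the 7 with CACGTG within 50 bp of its summit. The word began 7 bp past the summit, and it is marked in capitals in the 101 bases from chrIV:8146346-8146446.
pmk-2 intron peak: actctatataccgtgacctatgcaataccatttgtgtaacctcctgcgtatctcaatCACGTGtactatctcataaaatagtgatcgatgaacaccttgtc

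**Figure D2:**
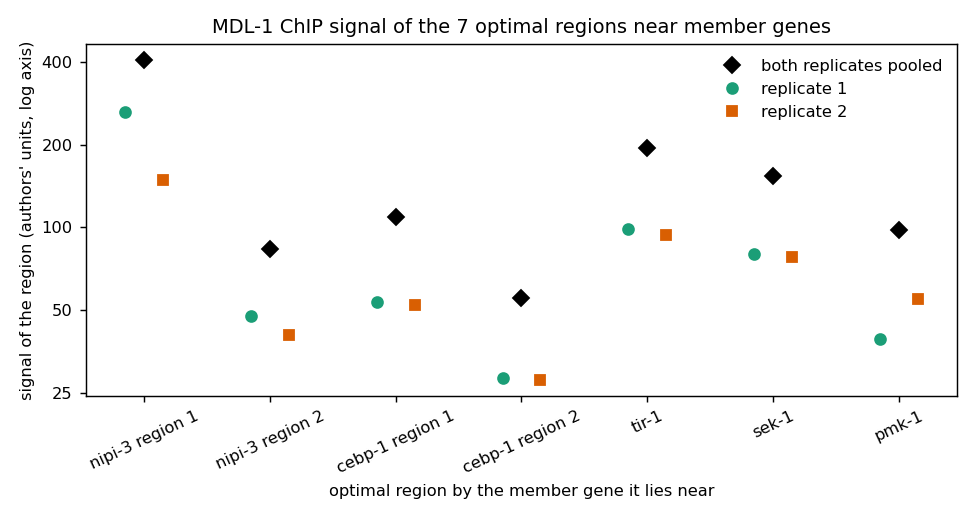
Signal of the 7 optimal regions on a log axis in the authors' units, by the member gene whose window holds them; where a gene has 2 peaks, region 1 is the stronger. Diamonds are the pooled data, circles replicate 1 and squares replicate 2; the stronger nipi-3 peak is highest in all 3 lists, at 407, 264 and 149.

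Both replicates placed the summits near the pooled ones, and at 5 of the 7 peaks their signals were close. All 7 optimal regions had an overlapping region in both replicates' own lists, as had 1067 of all 1076. The IDR threshold keeps regions that rank consistently between replicates, so this overlap follows largely from how the list was made. Summits differed from the pooled ones by 0 to 42 bp in replicate 1 and by 0 to 64 bp in replicate 2. The pooled summits come from the same replicates, so these shifts are not distances between independent data. When the 1076 strongest regions of each replicate alone were used, the same 5 genes had a summit in their window, against 10.6% of all genes in replicate 1 and 10.9% in replicate 2. The ratio of replicate 1 to replicate 2 signal was 1.76 at the stronger nipi-3 peak and 0.71 at the pmk-2 intron, and ran from 1.01 to 1.18 at the other 5 peaks. Over the 1067 optimal regions found in both lists the median ratio was 1.11, with quartiles at 0.843 and 1.43. The nipi-3 ratio was above 88.1% of these and the pmk-2 intron's above 13.2%. With 2 libraries of unknown depth, these differences between replicates were not tested.

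**Figure D3:**
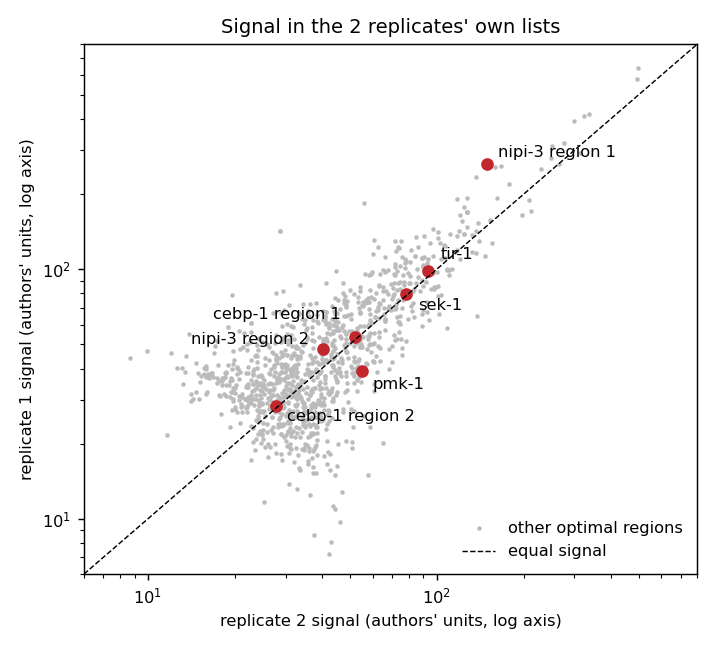
Signal of optimal regions in replicate 1 against replicate 2, both on log axes in the authors' units. Each grey point is 1 of the other optimal regions, red points are the 7 peaks near members, and the dashed line marks equal signal; the stronger nipi-3 peak lies above the line at 264 against 149 and the pmk-1 window's peak below it at 39.1 against 55.1.

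In sequence, the 7 peaks were a mixed group. CACGTG within 50 bp of the summit was present in 1 of 7, against 22% of all 1076 optimal peaks and 1.21% of equally wide windows placed 300 bp to the left. A further CACGTG lay in the weaker nipi-3 peak, but 124 bp from the summit. Among the 15 strongest peaks of the genome, 7 had CACGTG within 50 bp, and nipi-3 was among the 8 without it. The related word CACATG was in 0 of 7, against 9.76% of all optimal peaks.

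The 8-base word AGACGCAG, which is frequent at MDL-1 summits, was found at that distance in 1 of 7, the stronger cebp-1 peak, against 15.9% of all optimal peaks and 0.279% of the left flanks. That peak had 2 copies within 50 bp and 3 in its whole length. GAGAGA was within 50 bp in 2 of 7, the stronger nipi-3 peak and the peak upstream of eef-1A.2, against 35.1% of all. All 4 words were sought on both strands, and copies of GAGAGA can overlap each other. The share of G and C in the 101 bases around the summit ranged from 39.6% at the pmk-2 intron to 58.4% upstream of rpl-3, around a median of 49.5% for all optimal peaks.

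Below the IDR threshold the windows held a further 47 regions of the pooled list, with signals of at most 33.3. The optimal list holds the strongest regions of the pooled list, so none of the 47 could exceed its weakest signal, 48.3. Of these 47, 16 overlapped a region in both replicates' lists, and 4 had CACGTG within 50 bp. The tir-1 regions at ranks 3929 and 6641 matched the same replicate regions. Neither share was computed over all pooled regions, so the counts only describe these windows. The best of the 47 ranked 2161 and lay in tir-1, 9 bp upstream of one of its internal starts. Replicate 1 ranked it 1872, with a signal of 20, and replicate 2 ranked it 12783, with a signal of 12.1. In the median over the 7 genes a window held 6 pooled regions, against 3 for all protein-coding genes, and the density was 0.448 per kb against 0.276.

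Among other genes of the p38 pathway, regulators and downstream factors had optimal summits in 8 of 23 windows, 34.8%. The median window of this list was 15.6 kb, and of all genes with windows from 15 to 20 kb, 14.5% had a summit. Its longest window was 50.8 kb, and 18.6% of all genes with windows of 20 kb or more had a summit. The genes of this p38 list with a summit were led by hlh-30, the TFEB-type factor of host defence and autophagy, with 5 summits. The strongest was in an intron at rank 60, with ranks of 88 and 45 in replicates 1 and 2, and held CACGTG. The bZIP factor gene zip-2, which responds to blocked translation and infection, had a peak 211 bp upstream of one of its starts, with a pooled signal of 137.

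Genes that act on or beside PMK-1 followed with weaker peaks. pmk-2 and pmk-3 were reached by the intronic peak already described. Both thus enter the count of this list through a single peak, which is also the one in the pmk-1 window. wdr-23, whose product holds back the stress factor SKN-1, had a peak 129 bp upstream of its start with a signal of 94.1. vhp-1, the gene of a phosphatase that acts on MAP kinases of this class, had summits in its introns with signals of 90.0 and 55.1.

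Other bZIP factor genes had summits in 10 of 23 windows, 43.5%, and 7 of the 23 had one in their promoter window, against 3.07% of all genes. This list shares zip-2, skn-1 and atf-7 with the p38 list, and these 3 genes are among those with a summit in both counts. The median window of the bZIP list was 13.9 kb, a size at which 11.2% of all genes had a summit, counted from 12 to 15 kb. Its longest window was 46.2 kb, and 18.6% of all genes with windows of 20 kb or more had a summit. The bZIP genes with a summit were led by xbp-1, the factor of the unfolded protein response, whose strongest peak had a signal of 167 but lay nearer to asd-1. A weaker xbp-1 peak with a signal of 59.8 had its summit 1 bp from the xbp-1 start. Next came zip-2, fos-1 with 136, crh-2 with 108, atf-4 with 107 and zip-11 with 88.2. The atf-4 peak, 174 bp upstream of its start, was present in both replicates at ranks 232 and 299.

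Other MAP kinase pathways had summits in 3 of 18 windows, 16.7%, with a median window of 17.1 kb, near the 14.5% of all genes with windows from 15 to 20 kb. They were mpk-1, the ERK gene, with a signal of 139.6 in an intron, dlk-1, the kinase gene of an axon regrowth pathway in which cebp-1 also acts, with 3 summits of up to 94.3, and mlk-1 with 49.7. Immune effector genes, which encode antimicrobial peptides, lysozymes, lectins and infection-induced proteins, had summits in 0 of 21 windows. Their windows were short, with a median of 11.2 kb, and 8.46% of all genes with windows under 12 kb had a summit. The counts were alike in the strongest regions of each replicate alone, where the 82 genes of the 4 lists gave 18 and 19 with a summit.

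**Figure D4:**
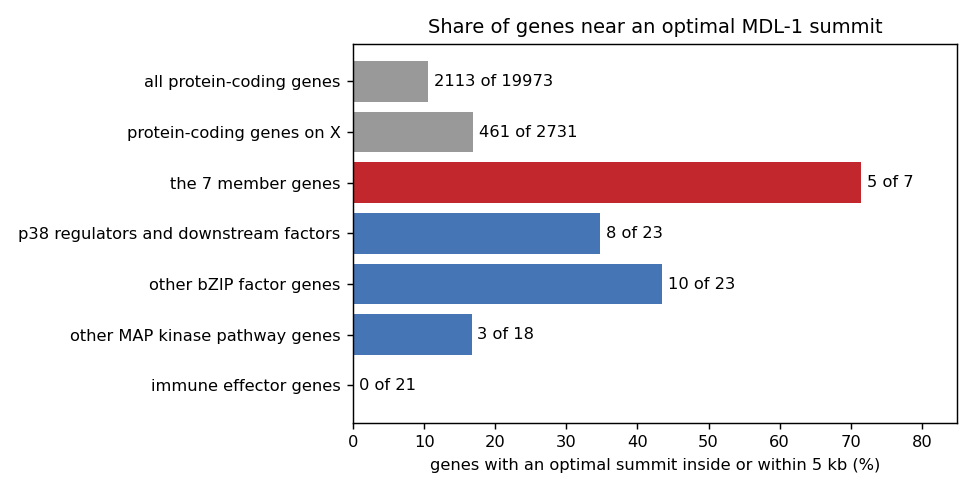
Percentage of genes with an optimal summit inside the gene or within 5 kb, with bars from 0 and the counts beside them. Grey bars are all protein-coding genes and those on X, the red bar is the 7 genes described here and blue bars are the other gene lists; the members stand at 5 of 7 and immune effector genes at 0 of 21.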

How the data were processed

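Per the files deposited with each replicate, the authors called regions on each replicate and on both pooled, each with a further file whose content is not stated, and thresholded them by IDR in ce10 and ce11. Each region has a deposited signal value and a deposited −log10 q-value (643 of 1076 optimal regions tie at its maximum of 3.11), so regions were ranked by signal. The sources used here do not give the caller, the aligner or the IDR threshold. Sequencing depth is unknown, and precision rests on 2 replicates, given one by one. The full ce10 lists were not used.

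Summits were placed on Ensembl release 115 gene models and the reference genome of ce11 with Python 3.11.15. Regions matched between lists when they overlapped by at least 1 bp. The window rules were tested on simulated data. The members, gene lists and words were chosen with earlier results of these data known. Genes named with a peak were the members, up to 6 genes per list with the strongest peak, genes with a nearer start, and non-coding RNA genes within 200 bp. In the lists, atf-5 matched no gene and 2 names were the same gene. No tests were made, only counts beside those of all genes.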

Additional observations from a re-analysis of the deposited data

How the results depend on the processing

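The rank of the nipi-3 peak was 15 in the pooled list and in the ce10 list, and 11 to 21 with a replicate left out. The 5 genes and 7 summits stayed at those counts with either replicate left out, when the share of all genes ran from 10.6% to 10.9%. With 2 kb, 2 genes and 3 summits remained (6.29% of all genes). With 10 kb there were 7 genes and 12 summits (17.4%), and with gene bodies alone 0 and 0 (1.43%). Pathway genes fell from 18 of 82, 22%, to 9 of 82, 11%, with gene bodies alone. With the nearest start only there were 2 genes and 2 summits (4.19%). The stronger regions of the list, those above its median, gave 5 genes (5.68%). The 5000 strongest pooled regions gave 5 genes and 16 summits (38.4% of all genes), and 40 of 82 pathway genes, 48.8%. Promoter windows from 500 bp upstream to 100 bp downstream kept 1 gene, and the share of all genes was not computed for this setting. CACGTG anywhere in the region was found in 2 of the 7 peaks, against 28.7% of all optimal peaks. The causes were not tested.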

Other observations

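Just past 5 kb the windows met a further 5 optimal summits, described after the 10 kb count was seen. The strongest, with a signal of 277 at rank 29, lay 5716 bp beyond cebp-1 and 336 bp from the start of zfp-3. The others had signals from 50.2 to 101 and lay nearer to starts of D1005.2, C48E7.1, brc-1 and F59A6.2 than to those of the members. On the 3′ side of nipi-3, a region 2830 bp past its start ranked 1182 in replicate 2 with a signal of 25.1, but 15464 in replicate 1 with a signal of 8.84.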
